A study of Mus musculus with 16 samples.

Results

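Chemokines are small secreted proteins that draw leukocytes along a gradient, and their receptors are membrane proteins that couple to G proteins. The genes described here are the mouse chemokines, chemokine receptors and atypical chemokine receptors whose symbols begin with Ccl, Ccr, Cxcl, Cxcr, Ackr, Xcl or Xcr and end in a number and at most 1 letter, together with Cx3cl1 and Cx3cr1. The homing genes Cxcl13, Ccl19, Ccl21a, Cxcl12, Cxcr5, Ccr7 and Cxcr4 were left out. That rule took 58 gene identifiers (55 symbols) of the 54838 in the count table, of which 39 are ligands, 15 are signalling receptors and 4 are atypical receptors. RNA was sequenced from spleens of C57BL/6 mice, with 8 size-selected and 8 whole spleen samples, and in each group 4 were male and 4 female. No genotype other than the strain, treatment or age is given in the labels used here. The labels record that a spleen was minced, digested with enzymes, depleted of red blood cells by lysis and poured through a strainer, and that material held back on the strainer made the size-selected sample. They name the source of the size-selected samples as spleen glia, which are support cells of nerves, and describe the same steps for the whole spleen samples with no separate preparation. Each of 8 label numbers occurs once in each group, and the labels do not say that samples with 1 number came from 1 animal.

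Inflammatory chemokines are released by stromal cells, endothelium and leukocytes when cytokines or microbial products switch their genes on, chiefly through NF-kappaB and interferon-regulated factors. CXC ligands of Cxcr2 draw neutrophils, CXC ligands of Cxcr3 draw activated T and NK cells, and CC ligands of Ccr2 draw monocytes. Atypical receptors bind chemokines without G protein signalling, and take them up or carry them across a cell.

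Deposited estimated counts summed to between 13119992 and 19944440 per size-selected sample and to between 12153770 and 16282454 per whole spleen sample. Whole spleen sample 427 stood apart from its group on the first principal component, at -65.03 against -123.6 to -106.1 for the other whole spleen samples. Deposited size-selected values of 3898 genes were multiplied by constants that differ between columns, which was found from the values, and 6 of the genes described here are among them (Cxcl1, Cxcl2, Ackr2, Ccl3, Ccl24 and Ccl8). Division by these constants gives what are called restored counts below. The labelled cell type was checked against 10 glial markers: 8 passed the count filter and all 8 rose in the size-selected samples (7 with the label number as a block), with a summed level of 75.9 to 510 CPM (reads scaled to a common library total) there against 2.76 to 10.8 CPM in whole spleen. Size-selected samples were also higher in markers of other cells. All 10 fibroblast and reticular markers past the filter, which include the homing genes Ccl19 and Cxcl12, rose (summed level 1640 to 5280 CPM against 9.66 to 85.5 CPM), as did 8 of 8 endothelial markers (776 to 1960 CPM against 86 to 228 CPM), 8 of 8 megakaryocyte and platelet markers (111 to 787 CPM against 59.1 to 209 CPM), 6 of 6 smooth muscle markers (769 to 3660 CPM against 8.42 to 69.5 CPM) and 6 of 6 mesothelial markers (21.7 to 200 CPM against 0.381 to 3.1 CPM). Lymphocyte markers were lower: 9 of 10 T cell markers fell (173 to 595 CPM against 752 to 1150 CPM), as did 8 of 8 NK cell markers (44.4 to 307 CPM against 319 to 674 CPM). Of 7 erythroid markers 3 fell, which were Hbb-bs (-2.18), Hba-a1 (-2.23) and Klf1 (-1.88), and 6 fell with the label number as a block. Erythroid sums were 110 to 3520 CPM against 283 to 13700 CPM, and the Hbb-bs fall was not called with restored counts (-1.64). Among the markers of these lists, 1 identifier in the fibroblast list was at 0 in every sample of either group, and none of the other lists had such a gene. The part of cell makeup in the differences that follow was not tested, and in bulk samples fewer cells of a type and less RNA per cell cannot be told apart.

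Of the 58 genes, 39 had enough counts to be tested for a difference between fractions and 19 fell short. A gene was called at a Benjamini-Hochberg adjusted p under 0.05 in edgeR's quasi-likelihood test, fitted on all 14510 genes that passed the filter. In the size-selected samples, 16 chemokine and receptor genes rose, 16 fell and 7 were not called. The same rule called 67.9% of all genes tested, 37.5% of them higher and 30.4% lower, so that calls were frequent over the whole table. A gene expressed in 1 group alone can pass the count filter only through that group, so these counts describe the tested genes and not all 58. The median log2 fold change was 0.14 over the 39 genes and 0.05 over all genes tested. A rise of at least 2 on the log2 scale was found for 11 of 39, a size that 16% of all genes tested reached. CPM of the 8 size-selected and 8 whole spleen samples did not overlap for 19 of the 39, against 34.9% of all genes tested. By role, 10 of 21 tested ligands rose and 6 fell, 2 of 14 tested signalling receptors rose and 10 fell, and 4 of 4 atypical receptors rose.

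**Figure D1:**
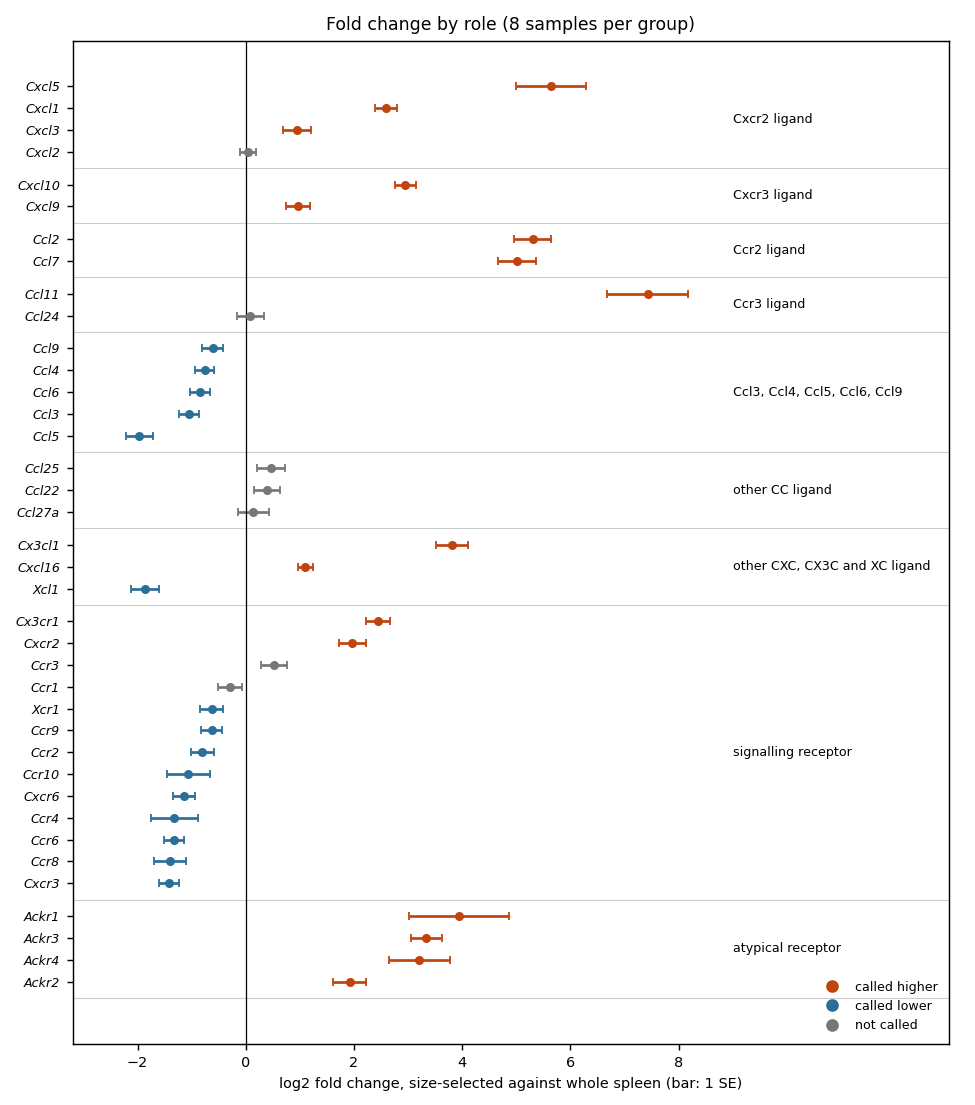
Log2 fold change of 38 tested genes (x axis, size-selected against whole spleen, bars 1 SE) by role, from 8 samples per group; red points were called higher, blue lower and grey were not called. Fold changes ran from -1.97 for Ccl5 to 7.43 for Ccl11, Ccl3, Ccl4, Ccl5, Ccl6 and Ccl9 lay below 0, and all 4 atypical receptors lay above it.

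Among the ligands of Cxcr2, the main neutrophil-attracting chemokine receptor of the mouse, Cxcl1, Cxcl3 and Cxcl5 rose and Cxcl2 was not called. Cxcl1, an early neutrophil attractant made by stromal and myeloid cells, was at 193, 455 and 611 CPM (lowest, median and highest of 8) in size-selected samples and at 33.9, 70.5 and 97.5 CPM in whole spleen. No whole spleen sample reached the lowest size-selected one. Cxcl1 rose by 2.59 on the log2 scale (SE 0.21, edgeR adjusted p = 6.03e-09), in 8 of 8 pairs, and by 3.0 with restored counts. Cxcl2, a close relative made largely by activated myeloid cells, was at 72.3, 109 and 163 CPM in size-selected samples and at 87.5, 105 and 164 CPM in whole spleen. The ranges nearly coincide, and Cxcl2 was higher in 4 pairs and lower in 4. Its log2 fold change was 0.04 (SE 0.15, edgeR adjusted p = 0.817). Because Cxcl2 carries a deposited constant, its call turned on the processing: with restored counts its fold change was 0.44 (edgeR adjusted p = 0.0154), from 93.2, 139 and 199 CPM in size-selected samples. Cxcl3 was the weakest of the 3 neighbours in level, at 4.71, 9.3 and 13.6 CPM in size-selected samples and 2.44, 4.61 and 8.09 CPM in whole spleen. The groups overlapped, but 8 of 8 pairs were higher in the size-selected sample, and the rise was 0.95 (SE 0.26, edgeR adjusted p = 0.00388), a call lost with males only (0.70, edgeR adjusted p = 0.126). Estimated counts of Cxcl2 and of Cxcl3 held decimals in 6 of 8 whole spleen samples each, and those of Cxcl1 in none. Whether reads were divided between these similar genes was not tested. Cxcl5, made in other tissues by epithelium, fibroblasts and platelets, was at 4.37, 25.1 and 38.8 CPM in size-selected samples and at 0, 0.134 and 1.22 CPM in whole spleen. It rose by 5.64 (SE 0.65, edgeR adjusted p = 4.20e-07) in 8 of 8 pairs, with no overlap. Cxcl15 was at 0 in every sample.

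Promoter windows of Cxcl1, Cxcl2 and Cxcl3 are shown because the 3 genes hold the same NF-kappaB letters close to their start sites and differ in fold change (2.59, 0.04 and 0.95). Each line below holds 110 bases upstream of a RefSeq start site (GRCm38.p6, strand +), with the NF-kappaB match in capitals, at chr5:90891115-90891224 for Cxcl1, chr5:90903749-90903858 for Cxcl2 and chr5:90785971-90786080 for Cxcl3.
Cxcl1: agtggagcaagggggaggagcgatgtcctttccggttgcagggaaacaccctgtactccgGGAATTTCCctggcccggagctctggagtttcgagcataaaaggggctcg
Cxcl2: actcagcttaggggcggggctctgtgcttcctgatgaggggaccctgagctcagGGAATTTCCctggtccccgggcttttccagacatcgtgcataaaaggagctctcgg
Cxcl3: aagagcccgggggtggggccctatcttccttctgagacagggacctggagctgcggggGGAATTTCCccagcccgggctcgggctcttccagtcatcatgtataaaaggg
The match is GGAATTTCC in all 3, and it begins 70 bases before the start site of Cxcl1, 96 before that of Cxcl2 and 72 before that of Cxcl3. Aligned on that match without gaps, with 30 bases on each side, Cxcl1 and Cxcl2 were identical at 32 of 69 bases, Cxcl1 and Cxcl3 at 31, and Cxcl2 and Cxcl3 at 25. The motif searched was GGANNTTCC on both strands, a stretch matching on both strands being counted once, and with the first window listed for each gene, 4.24% of 27025 genes with a RefSeq promoter window (250 bases before to 50 after the start site) held it. Windows were found for 39 of the 58 chemokine and receptor genes, and 7 of these 39 genes held the motif (17.9%). No window was found for Cxcl5, Ccl2, Ccl7, Ccl11 and Cxcl16, which rose, nor for Ccl4, Ccl5 and Ccr10 among those that fell. Among the 29 tested genes with a window, the motif was in 3 of 11 that rose (Cxcl1, Cxcl3 and Cxcl10). It was in 0 of 12 that fell and in 2 of 6 that were not called (Cxcl2 and Ccr3). These groups follow the deposited values, and with restored counts Cxcl2 was among the genes that rose. A match in the letters is no measurement of binding.

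Ligands of Cxcr3 rose unequally. Cxcl10, which interferon induces in many cell types, was at 188, 423 and 501 CPM in size-selected samples and at 34.3, 45.7 and 78.3 CPM in whole spleen. Every size-selected sample lay above every whole spleen sample, and 1 of them, number 435, was far below the other 7, which started at a log2 CPM of 8.43 against its 7.56. Cxcl10 rose by 2.95 on the log2 scale (SE 0.20, edgeR adjusted p = 7.99e-10) in 8 of 8 pairs. Cxcl9, whose induction depends more strictly on interferon gamma, was at 14.4, 23.2 and 39.8 CPM against 8.42, 12.6 and 19 CPM. The ranges overlapped and 7 of 8 pairs were higher, for a rise of 0.96 (SE 0.22, edgeR adjusted p = 0.000838), which was not called with males only (0.47, edgeR adjusted p = 0.197). Cxcl11, the third gene of this group, is typed in the annotation as a polymorphic pseudogene. It reached at most 10 counts in a size-selected and 2 in a whole spleen sample, and was too low to test.

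Windows of Cxcl10 (chr5:92349020-92349129) and Cxcl9 (chr5:92328195-92328304), both on strand - of GRCm38.p6 and from RefSeq, are shown for their interferon response element letters. Capitals mark that element in both and, in Cxcl10, also the NF-kappaB match that follows it.
Cxcl10: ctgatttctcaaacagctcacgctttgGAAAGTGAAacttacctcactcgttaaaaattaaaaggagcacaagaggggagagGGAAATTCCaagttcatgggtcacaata
Cxcl9: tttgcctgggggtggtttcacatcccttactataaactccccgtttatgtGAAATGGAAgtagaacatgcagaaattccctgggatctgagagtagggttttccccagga
In Cxcl10 the response element GAAAGTGAA begins 213 bases before the start site and the NF-kappaB match GGAAATTCC 158 before it, while in Cxcl9 GAAATGGAA begins 175 before the start site. The motif searched was GAAANNGAA on both strands, which 8.57% of all genes held in their first window, and 7 of the 39 chemokine and receptor genes (17.9%). Among tested genes it occurred in 2 of 11 that rose (Cxcl10 and Cxcl9), in 2 of 12 that fell (Ccl3 and Ccr2) and in 0 of 6 that were not called.

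The monocyte attractants Ccl2 and Ccl7, both ligands of Ccr2, rose in every pair. Ccl2 (chr11:82035571-82037453) was at 69.8, 180 and 300 CPM in size-selected samples and at 1.83, 3.89 and 8.41 CPM in whole spleen. Its fold change was 5.30 on the log2 scale (SE 0.34, edgeR adjusted p = 3.75e-10). Ccl7 (chr11:82045712-82047525), the neighbouring gene, was at 26.8, 78.8 and 152 CPM against 0.964, 2.3 and 4.28 CPM. It rose by 5.01 (SE 0.35, edgeR adjusted p = 9.67e-10). For both genes 8 of 8 pairs were higher and the groups did not overlap, size-selected sample 436 was the highest and 435 the lowest. Ccl12 and Ccl8, which lie beside them, fell short of the count filter. Ccl12 had 4 to 40 counts per size-selected sample and at most 5 in whole spleen, and Ccl8 had 3 to 162 and at most 15. In a fit with no count filter Ccl8 rose by 3.47 (SE 0.74, edgeR adjusted p = 0.000482) and Ccl12 by 2.40 (SE 0.53, edgeR adjusted p = 0.000675).

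Ccl11, the eosinophil attractant eotaxin, had the highest fold change of the set and rested on few whole spleen counts. It was at 2.41, 8.13 and 30 CPM in size-selected samples, while 5 of the 8 whole spleen samples were at 0 and the others held 7 counts in all. Most of these, 5, were in the whole spleen sample 427 that stood apart. The fold change was 7.43 (SE 0.75, edgeR adjusted p = 7.80e-08), and it became 8.82 without both samples of number 427 and 8.76 without that whole spleen sample alone. Ccl24, another ligand of Ccr3 and one made by macrophages, was at 2.7, 5.44 and 9.42 CPM against 3.84, 4.24 and 8.35 CPM. These ranges overlapped, and its fold change of 0.08 (SE 0.25, edgeR adjusted p = 0.797) was not called, nor was 0.32 with restored counts (edgeR adjusted p = 0.251). Ccl26 was at 0 in every sample.

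Ccl3, Ccl4, Ccl5, Ccl6 and Ccl9, CC ligands that T cells, NK cells and macrophages release, all fell: 5 of 5, each in 8 of 8 pairs. Ccl5, stored by cytotoxic and memory T cells and by NK cells, fell furthest. It was at 15.2, 54.6 and 92.2 CPM in size-selected samples and at 157, 229 and 285 CPM in whole spleen, with no overlap, and its fold change was -1.97 (SE 0.25, edgeR adjusted p = 1.37e-06). Size-selected sample 427 held the 15.2 CPM, and that sample also had the lowest summed T cell markers (173 CPM) and NK cell markers (44.4 CPM) of its group. Ccl4 was the most abundant of the 5, at 82.1, 155 and 164 CPM against 149, 230 and 308 CPM. The ranges overlapped at their ends, and the fold change was -0.76 (SE 0.17, edgeR adjusted p = 0.000494). Ccl3, its neighbour, was at 12.8, 21.3 and 26.1 CPM against 26.1, 43 and 50.2 CPM. The highest size-selected value only reached the lowest whole spleen value, and the fold change was -1.05 (SE 0.18, edgeR adjusted p = 5.80e-05), or -0.80 with restored counts. Ccl6 and Ccl9, which are rodent macrophage chemokines, overlapped between groups. Ccl6 was at 32.7, 44.1 and 54.2 CPM against 50.3, 71.8 and 129 CPM, with a fold change of -0.85 (SE 0.18, edgeR adjusted p = 0.000369). Ccl9 was at 13.5, 20.6 and 26.5 CPM against 20.9, 31.8 and 47.1 CPM, with a fold change of -0.61 (SE 0.19, edgeR adjusted p = 0.0082). With males only it was not called (-0.67, edgeR adjusted p = 0.0854).

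Both transmembrane chemokines rose. Cx3cl1, or fractalkine, a membrane-anchored ligand of endothelium and nerve tissue, was at 24.4, 49.1 and 80.3 CPM in size-selected samples and at 1.05, 3.66 and 6.2 CPM in whole spleen. Its groups did not overlap, and it rose by 3.81 (SE 0.30, edgeR adjusted p = 3.01e-09) in 8 of 8 pairs. Cxcl16, the ligand of Cxcr6 and a scavenger receptor of myeloid cells, was at 72.8, 132 and 162 CPM against 49.8, 60.7 and 70.6 CPM. Its lowest size-selected value was just above its highest whole spleen value, and it rose by 1.10 (SE 0.14, edgeR adjusted p = 8.91e-07) in 8 of 8 pairs. Estimated counts of Cxcl16 held decimals in 8 of 8 whole spleen samples. Xcl1, which NK and T cells release, moved the other way, from 6.05, 7.93 and 12.6 CPM in whole spleen to 0.859, 2.16 and 4.03 CPM, a fold change of -1.86 (SE 0.26, edgeR adjusted p = 3.65e-06), with no overlap and all 8 pairs lower. Ccl22, which draws Ccr4-bearing T cells, had medians of 10.4 CPM in size-selected samples against 7.76 CPM in whole spleen (fold change 0.40, edgeR adjusted p = 0.151). Ccl25, the gut and thymus ligand of Ccr9, had medians of 4.01 and 3.3 CPM (0.46, edgeR adjusted p = 0.122), and Ccl27a, a skin-homing ligand of Ccr10, 1.7 and 1.53 CPM (0.14, edgeR adjusted p = 0.674). None of these 3 was called with all samples. Ccl22 was called higher when the pair 435 was left out (0.46, edgeR adjusted p = 0.0147) and with females only (0.43, edgeR adjusted p = 0.0384).

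The other ligands were too low to test. Cxcl14, a chemokine of stroma and epithelium, had 3 to 22 counts per size-selected sample and at most 1 in whole spleen, and in the fit with no count filter it rose by 4.34 (SE 0.71, edgeR adjusted p = 2.52e-05). Ccl20, the ligand of Ccr6, had 16 counts over the size-selected samples and none in whole spleen. Ccl17 reached at most 11 counts in a size-selected and 5 in a whole spleen sample, Ccl1 at most 4 and 6, and Cxcl17 at most 1 and 0. Ccl28 and Ccl27b were at 0 in every sample. Near-identical copies of Ccl21 and Ccl27 on chromosome 4 and on unplaced sequences cannot be kept apart reliably by counting. Of the 6 such copies short of the filter that are named Ccl21b, Ccl21c or Ccl27, 5 had at most 1 count in any size-selected sample and at most 3 in a whole spleen sample. The sixth, a Ccl21c copy (ENSMUSG00000096271), had up to 16 counts in a size-selected sample and none in whole spleen.

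**Figure D2:**
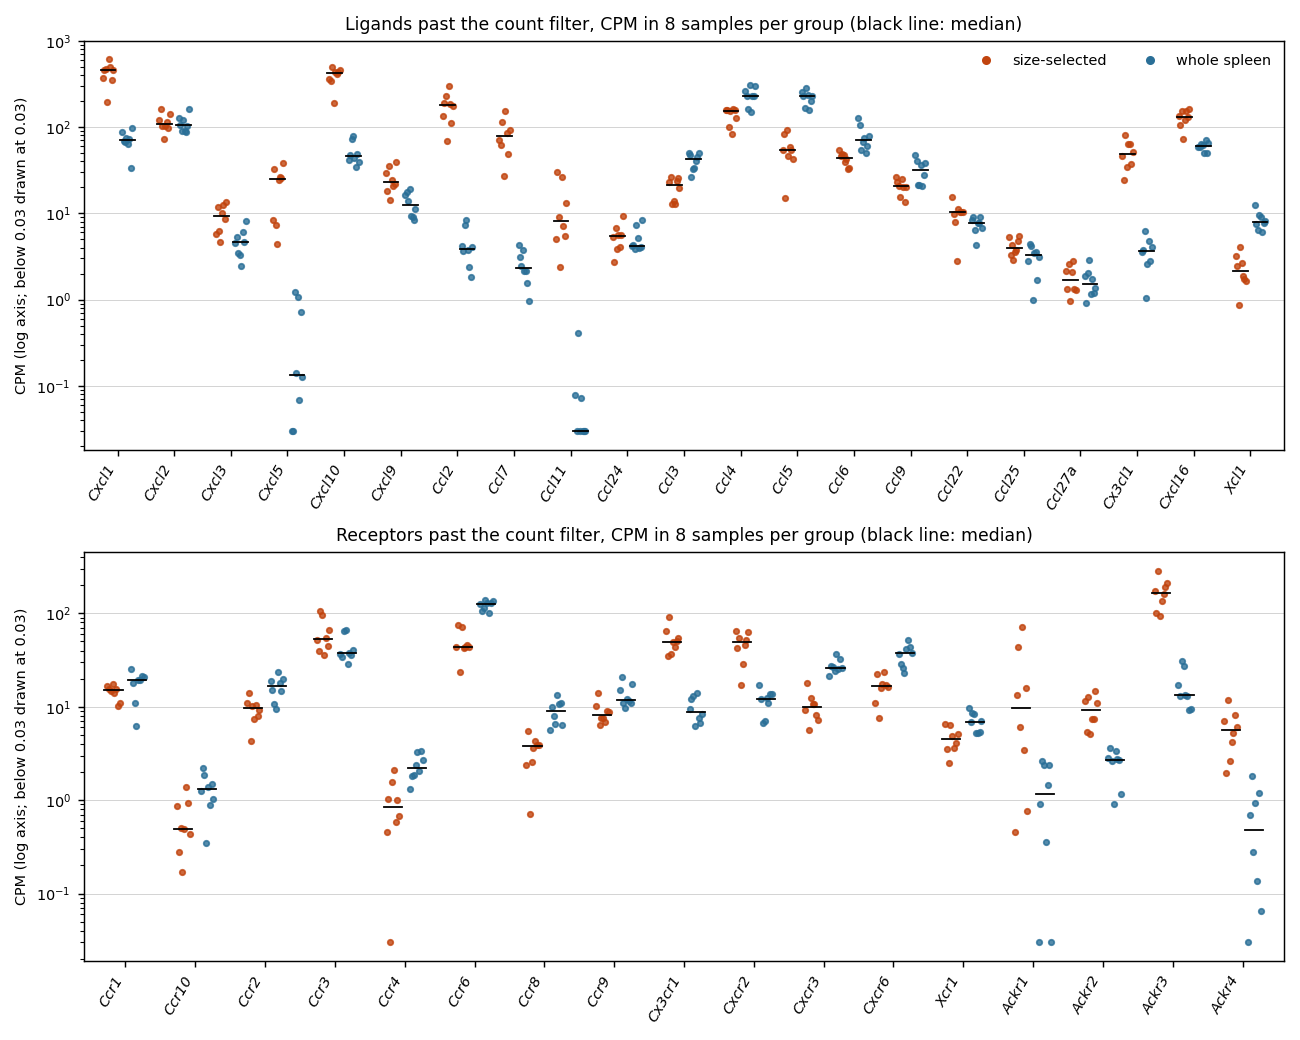
CPM (y axis, log scale, values below 0.03 drawn at 0.03) of 21 ligands and 17 receptors past the count filter in each of 8 size-selected (red) and 8 whole spleen (blue) samples, with a black line at each median. Ccl2, Ccl7, Cxcl5, Ccl11, Cx3cl1 and Ackr3 are separated widely, Cxcl2 and Ccl24 overlap, and Ackr1 spans 0.461 to 71.6 CPM within the size-selected group.

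Most signalling receptors fell, and 2 of the 14 tested rose. Cx3cr1, the fractalkine receptor of patrolling monocytes, macrophages and microglia, was at 35.1, 49.8 and 91.8 CPM in size-selected samples and at 6.24, 8.89 and 14.2 CPM in whole spleen. It rose by 2.45 (SE 0.22, edgeR adjusted p = 1.56e-08), with no overlap and 8 of 8 pairs higher. Cxcr2, the neutrophil receptor, was at 17.1, 49.3 and 64.2 CPM against 6.77, 12.2 and 17 CPM. Its lowest size-selected value was close to its highest whole spleen value, and it rose by 1.97 (SE 0.25, edgeR adjusted p = 1.15e-06) in 8 of 8 pairs. Neutrophil markers were looked at beside it. Of 9 such markers 8 fell, with fold changes of -1.85 for S100a8, an abundant calcium-binding protein of these cells, and -1.77 for S100a9, while Csf3r at 0.19 was not called. The summed level was 124 to 817 CPM in size-selected samples against 542 to 1870 CPM in whole spleen. Size-selected sample 435 had the lowest Cxcr2 (17.1 CPM) and the highest summed neutrophil markers (817 CPM). Which cells held the Cxcr2 RNA was not tested. Markers listed for monocytes moved both ways, and whether each is particular to monocytes in these samples was not tested. Fn1 rose by 3.93 and Csf1r by 1.92, Chil3 and Ly6c2 changed by -1.16 and -1.71, and of the 7 markers 4 rose and 2 fell. The rise of F13a1 (0.58, edgeR adjusted p = 0.0436) was not called with restored counts (0.53). Macrophage markers rose in 4 of 10 cases, led by Mertk (1.84) and Vcam1 (1.81), and none fell. With restored counts Cd5l was called higher too (0.55 against 0.31). With the label number as a block 6 rose, Cd5l and C1qb being gained.

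Receptors known from lymphocytes were among those that fell. Cxcr3, the receptor of effector T and NK cells, went from 21.2, 26.2 and 36.3 CPM in whole spleen to 5.66, 9.98 and 17.8 CPM, a fold change of -1.42 (SE 0.19, edgeR adjusted p = 2.87e-06). Ccr6, which B cells and Th17 cells carry, was the most abundant falling receptor, at 101, 127 and 140 CPM in whole spleen and 23.3, 43.3 and 75.6 CPM in size-selected samples, a fold change of -1.33 (SE 0.18, edgeR adjusted p = 2.29e-06). Neither gene's groups overlapped, and both were lower in 8 of 8 pairs. Of 8 B cell markers 7 fell, and their summed level was 1030 to 3660 CPM in size-selected samples against 5700 to 7000 CPM in whole spleen. Ccr8, found on regulatory T cells, was also without overlap, with medians of 3.79 CPM in size-selected samples against 8.92 CPM in whole spleen (fold change -1.40, edgeR adjusted p = 0.000337). Cxcr6, the receptor for Cxcl16 on resident T and NKT cells, had medians of 16.7 and 37.2 CPM (-1.14, edgeR adjusted p = 9.97e-05). Size-selected sample 427 was the lowest of its group for each of these 4 receptors and for 10 of the 16 genes that fell. Ccr4, a receptor of regulatory and Th2 cells, had medians of 0.835 and 2.22 CPM and was at 0 in size-selected sample 427 (-1.32, edgeR adjusted p = 0.0126), and was not called with males only (-1.31, edgeR adjusted p = 0.177). Ccr10, of plasma cells and skin-homing T cells, was near the detection limit with medians of 0.495 and 1.31 CPM (-1.06, edgeR adjusted p = 0.0262). Its call was lost when the pair 408, 427, 436 or 460 was left out, with fold changes of -1.03 to -0.81 and edgeR adjusted p from 0.0525 to 0.0962. It was also lost with females only (-0.60, edgeR adjusted p = 0.265) and with males only (-1.71, edgeR adjusted p = 0.0566).

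Ccr2, Xcr1 and Ccr9 fell as well. Ccr2, with which monocytes leave the bone marrow, was at 4.3, 9.69 and 14.1 CPM in size-selected samples and at 9.53, 16.6 and 23.7 CPM in whole spleen. It overlapped between groups, was lower in 7 of 8 pairs and had a fold change of -0.80 (SE 0.22, edgeR adjusted p = 0.00331), a call lost with males only (-0.52, edgeR adjusted p = 0.257). Xcr1, a marker of cross-presenting dendritic cells, had medians of 4.48 and 6.93 CPM (-0.63, edgeR adjusted p = 0.0133), and Ccr9, of plasmacytoid dendritic cells and gut-homing T cells, 8.16 and 11.8 CPM (-0.63, edgeR adjusted p = 0.00683). With males only neither was called (Xcr1 -0.90, edgeR adjusted p = 0.055; Ccr9 -0.63, edgeR adjusted p = 0.129), and Xcr1 was not called with females only (-0.38, edgeR adjusted p = 0.154). Of 7 dendritic cell markers 3 fell and 1 rose, with a summed level of 2550 to 7260 CPM in size-selected samples against 9230 to 13500 CPM in whole spleen. Most of that sum is H2-Ab1, an MHC class II gene that B cells also express (median 5040 CPM against 11700 CPM), and the other 6 markers summed to 159 to 211 CPM against 113 to 179 CPM. Of these 6, Zbtb46 rose (median 79.4 CPM against 19.4 CPM, 1.87), and Flt3 (-0.89) and Clec9a (-1.15) fell. Cd209a (-0.54), Itgax (-0.04) and Siglech (0.15) were not called, although Cd209a was called lower with the label number as a block. Ccr1 was not called, with medians of 15.2 and 19.3 CPM (-0.29, edgeR adjusted p = 0.25), and it was called lower when the pair 435 was left out (-0.46, edgeR adjusted p = 0.021) and with females only (-0.67, edgeR adjusted p = 0.00389), against 0.04 with males only (edgeR adjusted p = 0.939). Ccr3, the eotaxin receptor of eosinophils, was at 35.9, 52.7 and 107 CPM in size-selected samples and 28.5, 37.4 and 66.4 CPM in whole spleen. Its groups overlapped but 8 of 8 pairs were higher. The fit without pairing did not call it (0.52, SE 0.24, edgeR adjusted p = 0.0587), and the fit with the label number as a block called it higher (0.48, edgeR adjusted p = 0.00028). It was also called without whole spleen sample 427 (0.62, edgeR adjusted p = 0.0277). Cxcr1 had at most 4 counts in any sample.

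All 4 atypical receptors rose, in 8 of 8 pairs each. Ackr3, which binds and internalises Cxcl12, was the most abundant, at 92.8, 167 and 286 CPM in size-selected samples and at 9.34, 13.2 and 31 CPM in whole spleen. It rose by 3.34 (SE 0.29, edgeR adjusted p = 1.12e-08), with no overlap. Ackr4, which takes up the homing ligands of Ccr7 and Ccl25, was at 1.94, 5.66 and 11.9 CPM against 0, 0.483 and 1.8 CPM, a rise of 3.21 (SE 0.57, edgeR adjusted p = 6.59e-05), again with no overlap. Ackr2, a scavenger of inflammatory CC chemokines on lymphatic endothelium, was at 5.1, 9.25 and 14.8 CPM against 0.911, 2.71 and 3.58 CPM. It did not overlap and rose by 1.92 (SE 0.30, edgeR adjusted p = 1.33e-05), or by 2.33 with restored counts. Ackr1, the Duffy antigen of venules and red cells, was by far the most variable: in size-selected samples it was at 0.461 CPM in 407, 13.2 in 408, 43.9 in 427, 6.05 in 435, 71.6 in 436, 3.44 in 445, 15.8 in 447 and 0.769 in 460. In whole spleen it was at 0, 1.18 and 2.61 CPM, so that 407 and 460 lay within the whole spleen range. Its fold change was 3.94 (SE 0.93, edgeR adjusted p = 0.00105), it was 3.10 without the pair 436, and limma-voom did not call it (3.57, adjusted p = 0.0678). Summed endothelial markers of samples 407 and 460 were 1350 and 1500 CPM, with a group range of 776 to 1960 CPM. Their summed erythroid markers were 383 and 118 CPM, with a group range of 110 to 3520 CPM. Whether either cell type accounts for the Ackr1 levels was not tested.

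Set side by side, ligands and their receptors followed no single pattern. For Cxcr2 and for the fractalkine pair, the receptor rose and so did ligands (Cxcr2 1.97 with Cxcl1 2.59 and Cxcl5 5.64, and Cx3cr1 2.45 with Cx3cl1 3.81), although of the other ligands of Cxcr2 Cxcl3 rose by 0.95 and Cxcl2, at 0.04, was not called, and Ppbp, a platelet ligand of Cxcr2 outside the rule, rose by 1.57. In 3 systems there was a risen ligand and a fallen receptor, which were Cxcl10 (2.95) and Cxcl9 (0.96) with Cxcr3 (-1.42), Ccl2 (5.30) and Ccl7 (5.01) with Ccr2 (-0.80, not called with males only), and Cxcl16 (1.10) with Cxcr6 (-1.14). Those 3 systems were picked after their values were seen. Xcl1 (-1.86) and Xcr1 (-0.63) fell together. Of the homing genes left out by the rule, the ligands Cxcl12 (7.04), Ccl19 (6.64), Ccl21a (5.89) and Cxcl13 (5.73) rose, and the receptors Cxcr5 (-1.0), Ccr7 (-1.05) and Cxcr4 (-1.63) fell.

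Read per kb of exon, so that genes can be compared with each other, the order of mean levels differed between the groups. In size-selected samples the leading genes were Cxcl1 (227 CPM per kb), Ccl4 (209), Cxcl10 (174), Ccl2 (153) and Ccl7 (102). In whole spleen they were Ccl4 (354 CPM per kb), Ccl5 (229), Cxcl2 (53.7), Ccl3 (53.1) and Ccr6 (52.7), with Ccl2 at 3.9 and Ccl7 at 3.18. These orders are descriptions of means over 8 samples and were not tested. Summed over all 58 genes, the level was 1460 to 2640 CPM in size-selected samples and 1150 to 1510 CPM in whole spleen, with medians of 2310 and 1280 CPM. Ccl3, Ccl4, Ccl5, Ccl6 and Ccl9 together made up 433 to 749 CPM in whole spleen and 199 to 338 CPM in size-selected samples, whereas Cxcl1, Cxcl2, Cxcl3 and Cxcl5 together made up 142 to 269 CPM and 274 to 749 CPM.

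Neighbouring chemokine genes on 1 chromosome did not always move together. On chromosome 11, Ccl2, Ccl7 and Ccl11 stand in a group of 6 genes (chr11:82035571-82305690, GRCm38), and the 3 of them that were tested all rose. The next group, 1220088 bp further on (chr11:83525778-83664683), holds Ccl5, Ccl9, Ccl6, Ccl3 and Ccl4, and all 5 fell. On chromosome 5, the ligands of Cxcr2 lie within 147 kb, and there Cxcl5, Cxcl3 and Cxcl1 rose while Cxcl2, the last gene, was not called with the deposited values. Of the neighbouring receptor genes Ccr9, Cxcr6, Xcr1, Ccr1, Ccr3 and Ccr2 on chromosome 9, 4 fell and none rose. Cx3cr1, elsewhere on that chromosome (chr9:119901616-120069879), rose although Ccr8, the other gene of its group, fell.

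**Figure D3:**
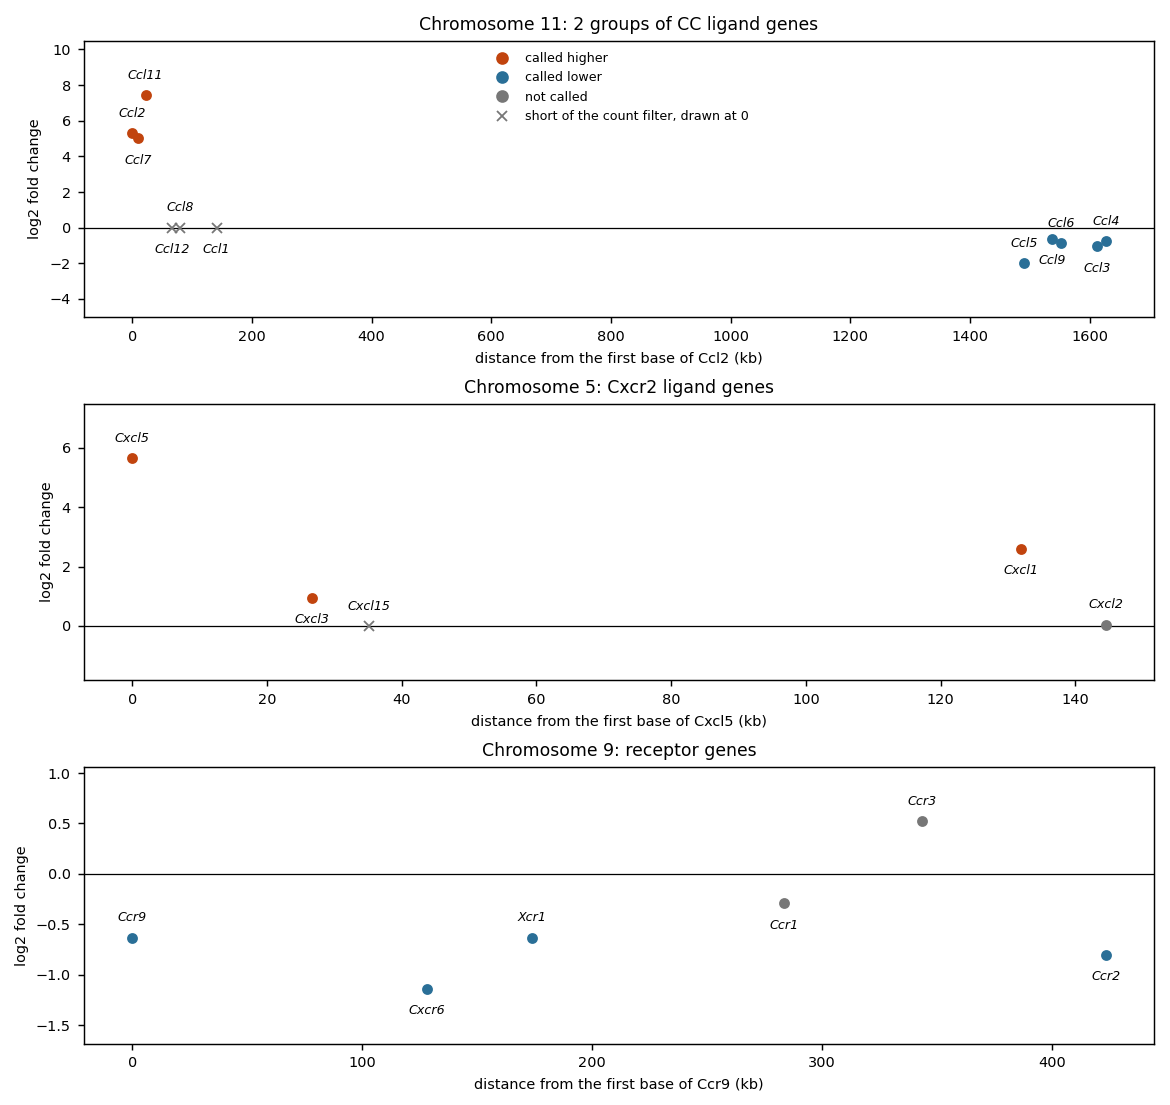
Log2 fold change (y axis) of neighbouring genes against the distance in kb from the first gene's first base (x axis), for 2 groups of CC ligands on chromosome 11, the Cxcr2 ligands on chromosome 5 and 6 receptors on chromosome 9; crosses are genes short of the count filter, drawn at 0. Ccl2, Ccl7 and Ccl11 lie between 5.01 and 7.43, and the 5 genes of the second chromosome 11 group between -1.97 and -0.61.

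Size-selected samples differed among themselves in a way that recurred over several genes. Sample 435 was the lowest of its group for 12 of the 16 genes that rose, among them Cxcl1, Cxcl10, Ccl2, Ccl7, Cxcr2 and Ackr3. Sample 427 was the lowest for 10 of the 16 that fell and the highest for 5 of the 16 that rose (Cxcl10, Cx3cl1, Cx3cr1, Ackr3 and Ackr4). Sample 436 was the highest for Cxcl1, Ccl2, Ccl7 and Ackr1. Beside these, the summed fibroblast and reticular markers were 1660 CPM in 435, 5280 CPM in 427 and 4840 CPM in 436, within a group range of 1640 to 5280 CPM, and the summed B cell markers were 3660, 1030 and 2130 CPM. Whether marker levels account for the order of the samples was not tested. Whole spleen sample 427 was the highest of its group for 6 of the 16 genes that rose, and without it 18 genes rose and 16 fell.

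**Figure D4:**
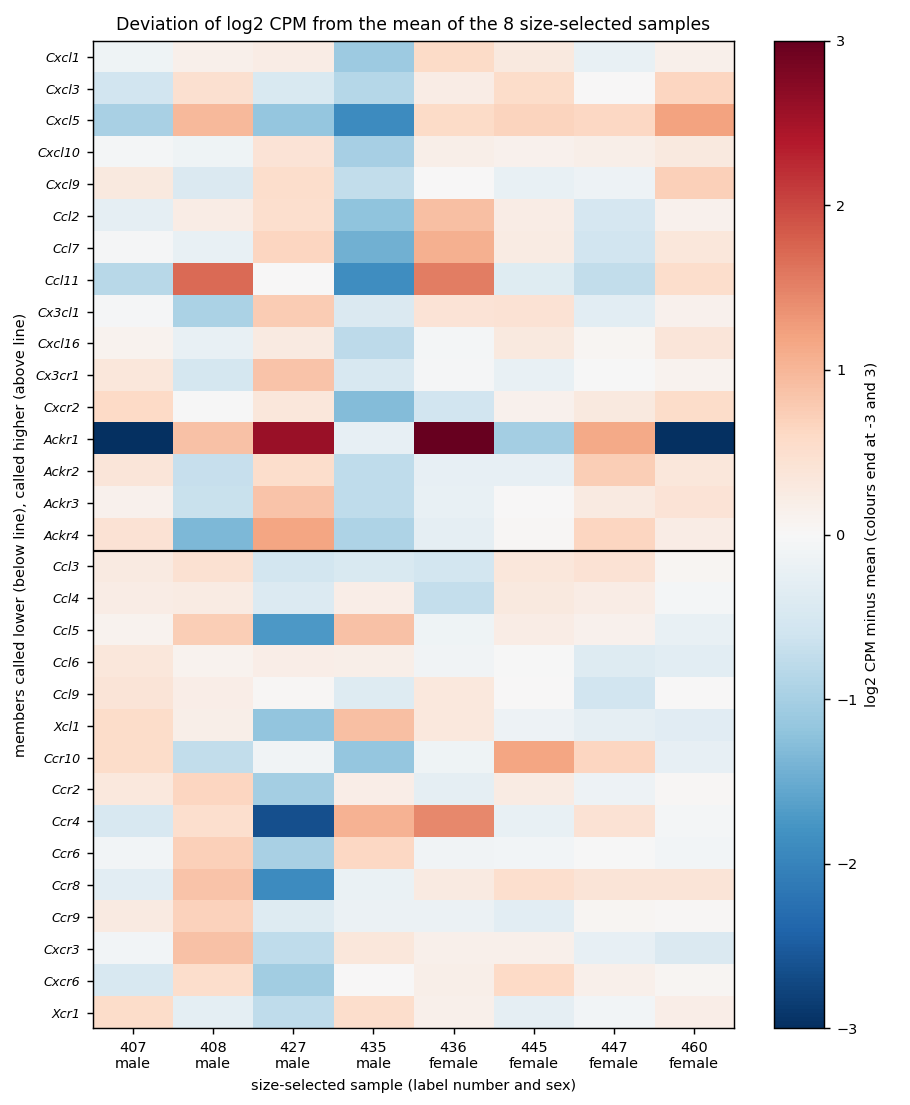
Log2 CPM of each size-selected sample (columns, label number and sex) minus the mean of the 8, for the 16 genes called higher (above the line) and 15 called lower (below it); red is above the mean and blue below, and colours end at -3 and 3. Column 435 is blue for most risen genes, column 427 is blue for most fallen genes, and Ackr1 has the widest spread.

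The labels allow the fraction difference to be compared between 4 female and 4 male pairs. No gene was called in the edgeR test of the interaction of sex and fraction (0% of 15760 genes), while 744 genes (4.72%) had an unadjusted p under 0.05, and DESeq2 called 3 genes, none of them a chemokine or receptor. The edgeR fit with the label number as a block also called 3 genes, again none of these, and had 7 of 41 chemokine and receptor genes (17.1%) and 5.93% of all genes at an unadjusted p under 0.05. Among chemokine and receptor genes, 6 of 41 tested (14.6%) had an unadjusted p under 0.05, each with an edgeR adjusted p of 1. Among these were Cxcl10, Cxcl9, Ccl2, Ccl7 and Ackr3, with a difference higher in females by 0.84, 0.94, 1.28, 1.48 and 1.07 on the log2 scale. Ccl2 was at 193 ± 78.2 CPM in size-selected and 3 ± 1.06 CPM in whole spleen females (SD, n = 4 each), and at 155 ± 68.6 and 5.88 ± 2.31 CPM in males. The number of such chemokine and receptor genes fell to 2 without the pair 435 or the pair 460, and was 9 without the pair 427, a fit in which 11.3% of all genes had an unadjusted p under 0.05.

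Lists of genes from pathways around the chemokines gave mixed counts, to be read beside the 37.5% of all genes tested that rose and the 30.4% that fell. Of 20 inflammatory cytokines and cytokine receptors, 11 rose and 4 fell, led by Il33 (5.14), a nuclear alarmin of stromal cells, and Lif (5.08), with Tnf (-0.81) and Ifng (-1.72), the main inducer of Cxcl9, at the other end. For interferon-stimulated genes 14 of 20 rose and 1 fell, from Iigp1 (4.62), an interferon-induced GTPase, and Ifit3 (2.39) down to Mx1 (-0.41) and Irf9 (-0.42). Among 20 genes of the NF-kappaB pathway 9 rose and 7 fell, from Sele (6.53) and Icam1 (2.31), both adhesion molecules, down to Traf1 (-0.56) and Nfkb1 (-1.21). For 20 genes of signalling downstream of the receptors, 2 rose and 7 fell, from Arrb1 (1.52) and Rgs18 (1.03) to Rac2 (-0.96) and Coro1a (-1.15). Among 17 immediate early and dissociation genes 12 rose and 1 fell, with Hspa1a (4.55) and Hspa1b (4.16), heat shock chaperones, at the top and Ier2 (-0.39) at the bottom. With restored counts the falls of Ier2 (0.01), Irf9 (-0.18), Relb (-0.01), Ikbkg (-0.14), Il10 (-0.30) and Cdc42 (-0.15) were not called. That leaves no fall among the immediate early or interferon-stimulated genes and 5 in the NF-kappaB pathway. Rac1 of the signalling list gained a call with restored counts (0.33 against -0.04), so that 3 genes of that list then rose. The summed level of the immediate early and dissociation genes was 6770 to 12600 CPM in size-selected samples and 3790 to 5300 CPM in whole spleen, and their part in the chemokine differences was not tested. A list of further genes outside the rule, mostly relatives of chemokines and of their receptors but also Cxadr, an adhesion protein that is none, had 11 genes tested, of which 9 rose and 2 fell, from Rarres2 (6.07), the precursor of the attractant chemerin, to Mif (-1.01).

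The authors' deposited table, whose lowest log2 fold change is 3.5, lists 8 of the 58 genes. In the authors' deposited table they are Ccl11 (7.57), Cxcl5 (5.64), Ccl2 (5.33), Ccl7 (5.05), Cxcl14 (4.57), Ackr1 (3.96), Ccl8 (3.62) and Cx3cl1 (3.60). Of these, 6 were called here with a fold change of at least 3.5, and Cxcl14 and Ccl8 were short of the count filter used here. The authors' deposited table gives mean TPM of 373 in size-selected samples and 7.2 in whole spleen for Ccl2, and of 18.3 and 0.0813 for Ccl11.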

How the data were processed

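RNA was sequenced in 8 size-selected and 8 whole spleen samples. The submitters' processing notes name Trim Galore, STAR, RSEM, DESeq and the build mm10, with no version or role. The authors deposited estimated counts per gene (an expected count per gene and sample, not normalised), which were rounded to whole numbers. A second table, per the file headers, holds the authors' mean signal per gene, log2 fold change with its error, a test score, p-values with adjusted p-values, and mean TPM and FPKM per group. The authors' FPKM values were not used here. Genes were tested with edgeR 4.0.16 (limma 3.58.1, DESeq2 1.42.0, R 4.3.3) on the 16 samples in a model of group alone, filterByExpr with a minimum count of 10, TMM and Benjamini-Hochberg adjustment over all genes tested at 0.05. CPM use TMM-scaled totals, and log2 CPM a prior count of 2. Annotation is GENCODE M21 on GRCm38, in which all 58 identifiers were found. Totals of 12153770 to 19944440 counts leave genes of a few counts imprecise. Fits were tested on simulated data.

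Every gene of the rule past the filter is named, except 1 that is not reported here and is part of the counts. Full statistics go to those called at a log2 fold change of 2 or more and to the 6 others of highest level, and lists name their 2 highest and 2 lowest genes; other genes were given more or fewer statistics for length. The genes, lists and tests were chosen with earlier results of these data known. Samples that share a number deviated together from their group means (correlation 0.12 to 0.375 over genes, mean 0.208), so that the numbers were taken as pairs. The mean for other numbers was -0.0287. Deviations from a group mean cancel within the group, so that value is nearly fixed by the first and is no separate comparison. Whether the replicates come from separate animals is not stated, and p-values measure only the spread between these samples. Constants in size-selected columns were found as ratios of values to 2-decimal numbers, and no label or header mentions them. Alternatives were RLE scaling, library totals, other filters, DESeq2, limma-voom, the number as a block, sex as a covariate, 1 sex alone, restored counts and leaving out each number. Restored counts with the block, and the fit without whole spleen sample 427, were added after the data were seen.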

Additional observations from a re-analysis of the deposited data

Results flagged for a closer look

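In 7 of 78 groups of 8 values 1 sample stood further from the rest than Dixon's limit for 8 values allows, where about 1 in 20 groups, 3.9 of 78, would do so by chance. Size-selected sample 427 was the lowest of its group for 3 genes, with a log2 CPM of 3.94 for Ccl5, -2.91 for Ccr4 (a count of 0) and -0.24 for Ccr8. Size-selected sample 435 was the lowest for Cxcl10, at 7.56, and for Ccl22, at 1.55. In whole spleen, sample 447 was the lowest for Cxcl1, at 5.09, and sample 427 the highest for Ccl11, at -0.89 against -2.25 for the next sample.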

How the results depend on the processing

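Of 818 values of single genes under the alternatives, 777 kept their direction and their side of the threshold, 21 lost a call, 12 gained one and 8 changed sign, and 23 of the 39 tested genes did none of these under any alternative. With the number as a replicate block 17 genes rose and 16 fell, and Ccr3 was the 1 call it changed among them. Fallen genes numbered 9 with males only and 15 with females only, at the same number of samples, and risen genes 15 and 18. Over all genes tested 2799 of 14642 fell with males only and 4102 of 14825 with females only, and 3975 and 5341 rose. Among the genes named, Cxcl3, Cxcl9, Ccl9, Ccr2, Ccr4, Ccr9, Ccr10 and Xcr1 lost their calls with males only, and Ccr10 and Xcr1 also with females only, at the values given above. All changes of sign were in genes that were not called: Cxcl2 with no filter (-0.02), with males only (-0.03) and without whole spleen sample 427 (-0.00), and Ccl24 (-0.15), Ccl27a (-0.22) and Ccr1 (0.04) with males only. Leaving out each pair gave -0.06 to 0.13 for Cxcl2 and -0.02 to 0.22 for Ccl24. For all of these the cause was not tested. Library totals without TMM moved the median of all genes by 0.13 on the log2 scale and the share of calls that were higher from 55.3% to 63.7%; 17 of the genes described then rose and 15 fell, with Ccr3 gained. With no count filter 21 rose and 16 fell, 5 of the risen being genes short of the filter. Leaving out each pair gave 16 to 17 risen and 14 to 17 fallen genes.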
